A study of Homo sapiens with 6 samples.

Results

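The imprinted loci examined here were 8 regions of the human genome, each named after a gene read, from at least some of its promoters, mainly on the copy inherited from a single parent: H19, IGF2, KCNQ1OT1, PEG3, MEST, MEG3, PLAGL1 and GNAS. They were looked up in lists of chromatin immunoprecipitation sequencing (ChIP-seq) intervals for H3K4me3 and H3K27me3 from H1299 cells, an established line of non-small cell lung cancer. The tested cells had been given 5 mM metformin, a biguanide drug, and the control cells had not. Both were grown in the same way at the same range of passages, per the labels. The series holds 6 libraries, and the 4 ChIP libraries (metformin H3K4me3, control H3K4me3, metformin H3K27me3 and control H3K27me3) were used. The 2 input libraries were not analysed here. An interval belonged to a locus if at least 1 bp of it lay within 10 kb of an anchor position set for the gene, or inside a range of 90 kb for GNAS. All positions are on hg19 and 1-based. The rule found 58 intervals of the 275570 in the 4 lists. Of these, 22 were H3K4me3 intervals of metformin cells and 19 were H3K4me3 intervals of control cells. H3K27me3 gave 8 intervals in metformin cells and 9 in control cells.

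Genomic imprinting marks the maternal and paternal copies of a gene differently in the germ line, by DNA methylation at a control region. At such a region the unmethylated copy commonly carries H3K4me3, the trimethylated histone H3 lysine 4 of active promoters, while the methylated copy lacks it. H3K27me3, the trimethylated lysine 27 placed by Polycomb repressive complex 2, is found at silent promoters and at some silent copies of imprinted genes. KCNQ1OT1, PEG3, MEST and PLAGL1 are known to be expressed from the paternal copy, with a promoter methylated on the maternal copy. IGF2 is also paternally expressed, whereas H19 and MEG3 are maternally expressed. GNAS has several promoters, of which some are maternal, some paternal and some active on both copies. Imprinting is often disturbed in cancer cells. The interval lists do not tell the copies apart, so allele-specific marking was not analysed here.

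Each list comes from 1 library, so no difference between metformin and control cells could be tested, and every value below is that of a single library. How deeply each library was sequenced is not recorded in the lists. The value of an interval is the number deposited by the authors with each peak, read here as a −log10 q because the smallest values were 1.31 in both H3K4me3 lists, just above the 1.30 of q = 0.05. In the H3K27me3 lists they started at 1.00 in metformin cells and 1.01 in control cells. On the same reading this is a looser limit, and H3K27me3 values below 1.30 fall short of q = 0.05. They include calls at H19, IGF2 and MEST. Values serve to rank intervals within a list and are not signal levels. The lists hold 53454 metformin and 50585 control H3K4me3 intervals, and 85952 metformin and 85579 control H3K27me3 intervals. In a population of cells, a mark on fewer copies or in fewer cells and less of the mark per copy cannot be told apart. The labelled cell type could not be set against marker genes, because gene positions on hg19 were not at hand.

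Promoter sequences of the genes are shown for their CpG dinucleotides, the sites of DNA methylation. These windows are gene starts and need not be the control regions that carry the imprint. RefSeq's promoter table (GRCh38.p14), which spans 250 bases before to 50 bases after each start, held windows for 5 of the 8 genes: 1 start for H19, 5 for MEST, 3 for MEG3, 5 for PLAGL1 and 6 for GNAS. IGF2, KCNQ1OT1 and PEG3 had no entry. Starts are numbered in the direction of transcription. The windows were not placed on the hg19 intervals, because positions were not converted between builds. Shown are the single start of H19, the first and last starts of MEST, the first of MEG3, and the most CpG-rich windows of PLAGL1 and GNAS. Each runs 5′ to 3′, with CpG dinucleotides in capitals.
H19, start 1: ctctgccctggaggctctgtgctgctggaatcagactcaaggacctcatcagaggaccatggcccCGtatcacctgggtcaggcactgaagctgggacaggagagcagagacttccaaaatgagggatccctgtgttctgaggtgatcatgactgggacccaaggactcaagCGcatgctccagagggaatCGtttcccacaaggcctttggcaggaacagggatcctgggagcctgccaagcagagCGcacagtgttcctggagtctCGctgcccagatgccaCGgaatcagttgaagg
MEST, start 1: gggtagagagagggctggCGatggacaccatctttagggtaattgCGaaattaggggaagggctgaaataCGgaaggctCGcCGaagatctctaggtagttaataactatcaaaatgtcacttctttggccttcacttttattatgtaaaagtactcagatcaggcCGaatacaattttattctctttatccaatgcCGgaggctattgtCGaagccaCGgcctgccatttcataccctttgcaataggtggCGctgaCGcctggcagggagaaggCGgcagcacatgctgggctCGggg
MEST, start 5: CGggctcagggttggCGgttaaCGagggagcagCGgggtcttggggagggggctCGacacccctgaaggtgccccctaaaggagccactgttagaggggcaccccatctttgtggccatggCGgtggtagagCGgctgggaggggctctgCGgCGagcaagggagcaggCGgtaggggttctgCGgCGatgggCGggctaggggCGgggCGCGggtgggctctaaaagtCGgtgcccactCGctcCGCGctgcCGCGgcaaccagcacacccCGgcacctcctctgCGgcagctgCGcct
MEG3, start 1: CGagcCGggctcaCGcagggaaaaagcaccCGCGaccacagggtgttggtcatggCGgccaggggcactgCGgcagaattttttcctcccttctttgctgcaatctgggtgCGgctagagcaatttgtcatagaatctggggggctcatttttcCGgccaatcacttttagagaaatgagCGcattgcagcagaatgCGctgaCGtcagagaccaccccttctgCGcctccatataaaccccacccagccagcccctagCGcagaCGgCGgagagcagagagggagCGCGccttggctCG
PLAGL1, start 3: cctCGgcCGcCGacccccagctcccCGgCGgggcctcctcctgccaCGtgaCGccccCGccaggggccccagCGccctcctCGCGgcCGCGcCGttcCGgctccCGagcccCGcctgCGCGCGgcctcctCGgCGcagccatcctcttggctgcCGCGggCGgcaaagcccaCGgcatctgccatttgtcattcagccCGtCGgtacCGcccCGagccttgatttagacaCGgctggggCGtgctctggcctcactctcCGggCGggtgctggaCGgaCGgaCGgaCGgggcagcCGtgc
GNAS, start 6: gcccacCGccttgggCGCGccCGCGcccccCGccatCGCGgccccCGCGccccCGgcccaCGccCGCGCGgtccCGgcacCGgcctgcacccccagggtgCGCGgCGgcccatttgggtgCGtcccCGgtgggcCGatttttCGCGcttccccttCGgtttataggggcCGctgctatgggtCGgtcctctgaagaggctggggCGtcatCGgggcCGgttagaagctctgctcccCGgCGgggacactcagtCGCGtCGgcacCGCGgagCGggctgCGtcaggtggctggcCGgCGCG

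H19 had the sparsest promoter among these 6 windows, with 6 CpG dinucleotides in 300 bases, against a median of 14 over the 35116 windows of the table. GNAS start 6 held 43, as many as or more than 95.8% of all windows, and PLAGL1 start 3 held 39, as many as or more than 92.4%. Starts of a single gene differed widely. PLAGL1 start 5 held 2 CpG dinucleotides, PLAGL1 start 1 held 31, and MEST held 13 at its first and 25 at its last start. MEG3 held 17 to 19 at its 3 starts, which overlap each other and so are not independent.

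The hexamer TGCCGC, the motif known for ZFP57, a zinc finger protein that protects imprints, was searched on both strands. It occurred in 16.7% of all windows. Among these genes MEST start 5 held 3 copies, and MEST start 4, which overlaps it, held 2. MEST starts 1 and 2 held 1 copy each, as did the 3 MEG3 starts, and within both sets the windows overlap and can hold the same copy. PLAGL1 start 3 held 2 copies, GNAS start 1 held 1 and H19 held none. With windows that overlap, their number is not a count of separate matches. Neither a 14-base core of the motif of the insulator protein CTCF nor an 11-base YY1 repeat known from PEG3 occurred on either strand of the 20 windows, and they occurred in 0.0655% and 0.327% of all windows. With shares this low, their absence from 20 windows says little about these genes. PEG3 itself had no window to search. These are matches of letters only, and they say nothing about binding.

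**Figure D1:**
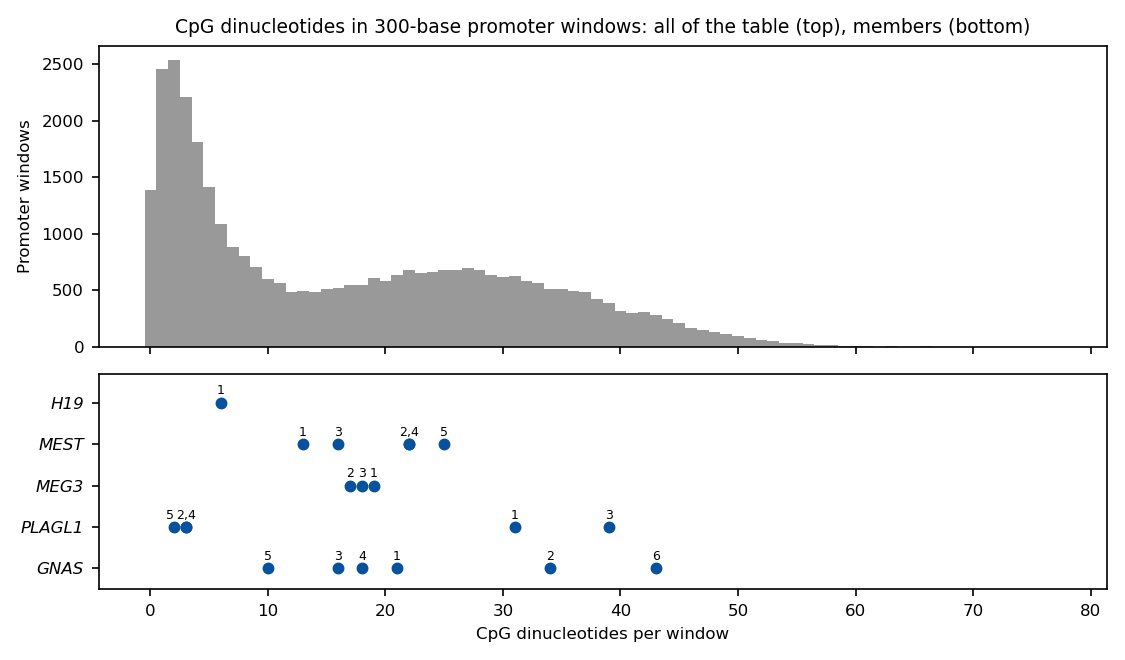
The upper panel counts all 35116 promoter windows by their number of CpG dinucleotides (x axis, per 300-base window), and the lower panel places each window of H19, MEST, MEG3, PLAGL1 and GNAS on the same axis, labelled with its start number. H19 lies at 6, and GNAS start 6 lies at 43.

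Over the 8 loci, H3K4me3 was found at 5 loci in metformin cells and at 7 in control cells. Across the genome, cut into tiles of equal length, 14.9% of 20 kb tiles and 38.4% of 90 kb tiles held it in either list. The tiles were cut without regard to genes, whereas the loci were placed at genes, and the locus counts are per list. These shares are therefore not a matched background. At the loci H3K4me3 covered 20101 bp in metformin cells and 17829 bp in control cells. The metformin length was 1.13 times the control length, close to the 1.12 times of the whole lists. Without GNAS, the widest region, the lengths were 8008 bp in metformin cells and 7099 bp in control cells, and the ratio was again 1.13. In both conditions H3K4me3 was found at KCNQ1OT1, PEG3, MEST, PLAGL1 and GNAS. The exceptions were IGF2 and MEG3, each with a single short interval of low value (1.78 and 3.07) in control cells only, and H19, which had none.

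**Figure D2:**
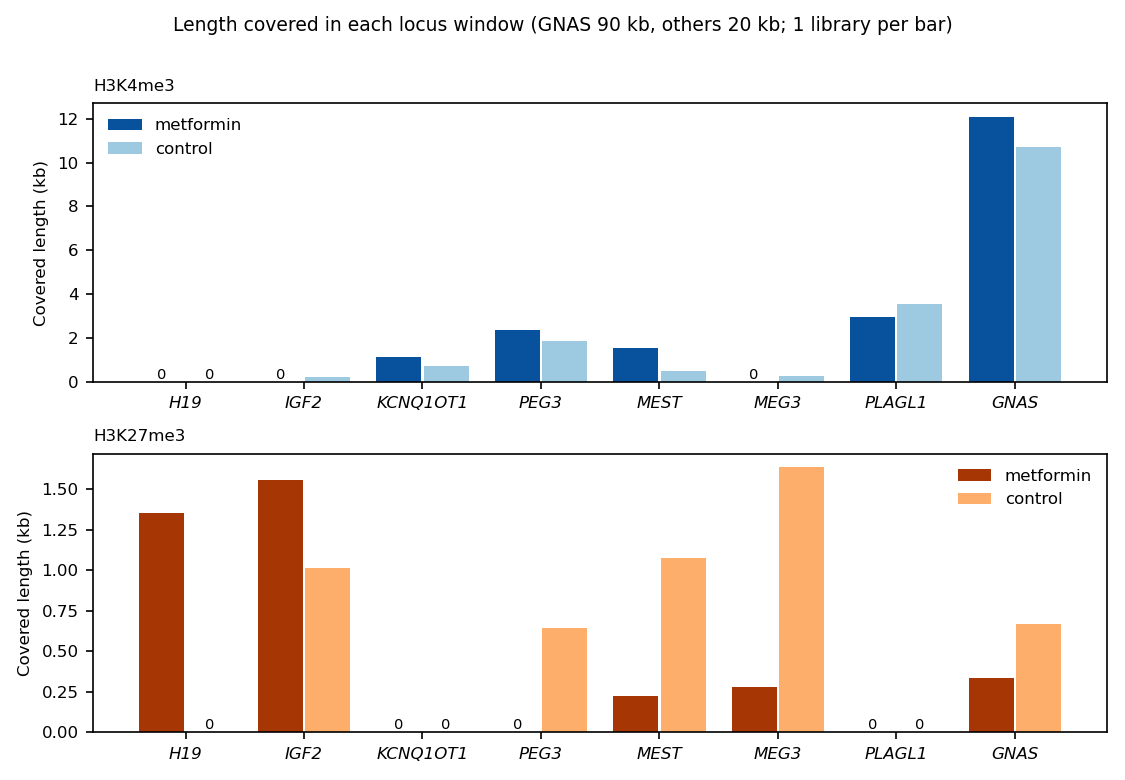
Bars give the length in kb that each list covered in the window of each locus (x axis), H3K4me3 in the upper and H3K27me3 in the lower panel, with metformin left of control and 1 library per bar, so there are no error bars. H3K4me3 reaches 12093 bp in metformin and 10730 bp in control cells at GNAS, while no H3K27me3 bar exceeds 1635 bp.

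PLAGL1, which encodes a zinc finger transcription factor with growth-inhibiting activity, carried the widest H3K4me3 of the 7 genes with an anchor. Metformin cells had 1 interval of 2944 bp at chr6:144327137-144330080, with 7 sub-peaks and a value of 35.55. Control cells had 2 intervals, chr6:144327039-144329389 (2351 bp, 5 sub-peaks, value 39.25) and chr6:144329691-144330882 (1192 bp, 3 sub-peaks, value 8.11). The single metformin interval thus lay over both control intervals and over the 301 bp between them, where the anchor chr6:144329541 lies. Its right end lay 802 bp to the left of that of the second control interval. The window was covered over 2944 bp in metformin cells and 3543 bp in control cells, a ratio of 0.831. Of the metformin length 89.8% was shared with control cells, and of the control length 74.6% was shared with metformin cells. No H3K27me3 lay in the window in either condition. In the RefSeq table PLAGL1 overlaps HYMAI, a non-coding RNA of the same imprinted locus.

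PEG3, a zinc finger gene of an imprinted cluster on chromosome 19, had 5 H3K4me3 intervals in each condition, arranged in the same places. They spanned 4384 bp in metformin cells (chr19:57348378-57352761) and 4270 bp in control cells (chr19:57348466-57352735). Of these spans 54.4% was covered in metformin cells and 43.5% in control cells. PEG3 is read towards lower coordinates, so most of the marked sequence lay on the gene's side of the anchor.

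The intervals nearest the PEG3 anchor differed in how they were divided. In metformin cells chr19:57351394-57352409 (1016 bp, value 19.31) lay over the anchor chr19:57352096, over a whole control interval and over part of another. In control cells these were chr19:57351396-57351595 (200 bp, value 7.78) and chr19:57352274-57352735 (462 bp, value 2.64), and the nearer edge was 177 bp away from the anchor. The highest-valued PEG3 interval was chr19:57349804-57350228 in metformin cells (value 27.48) and chr19:57349229-57349592 in control cells (value 15.14), which are neighbours and not the same site. All 5 intervals of each condition had a partner in the other. The covered length was 2385 bp in metformin cells and 1858 bp in control cells, a ratio of 1.28, or 2.49 among intervals with a value of at least 5. PEG3 shares its start with ZIM2 and is followed in the RefSeq gene order by MIMT1, so the mark cannot be given to a single transcript.

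KCNQ1OT1, the long non-coding RNA that is read against KCNQ1 and silences neighbouring genes in cis, had its main H3K4me3 interval just inside the transcript. In metformin cells chr11:2719655-2720611 was 957 bp long with a value of 10.23, and in control cells chr11:2719768-2720471 was 704 bp long with a value of 12.57. The control interval lay wholly within the metformin interval. Metformin cells had a second interval, chr11:2721018-2721189, of 172 bp with a value of 2.71, which ended 38 bp short of the anchor chr11:2721228. Its width was in the 4.1 percentile of its list, and the nearest control interval was 546 bp away from it. The covered length was 1129 bp in metformin cells and 704 bp in control cells, a ratio of 1.60, or 1.36 among intervals with a value of at least 5. Neither condition had H3K27me3 in the window.

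MEST, which encodes a protein of the alpha/beta hydrolase fold and hosts MIR335, had H3K4me3 well downstream of the anchor chr7:130126046. Metformin cells had 3 intervals there, chr7:130130922-130131864 (943 bp, value 11.45), chr7:130132270-130132500 (231 bp, value 6.61) and chr7:130133184-130133559 (376 bp, value 4.63). Control cells had 1 interval, chr7:130130876-130131351 (476 bp, value 2.99), and 430 bp of it was shared with the first metformin interval. The other 2 metformin intervals lay 918 bp and 1832 bp away from it. MEST had the largest ratio of covered H3K4me3 among the loci covered in both lists, 3.26, from 1550 bp in metformin cells and 476 bp in control cells. Within 20 kb of the anchor the ratio was the same, and with intervals under 1 kb apart joined it was 5.54. Within 5 kb, a limit that cuts through the first interval, it was 0.731.

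The MEST intervals were of middling rank within their lists. The first metformin interval was at the 63.7 percentile of values, and the control interval was at the 22.4 percentile of its own list. MEST is known to have a second promoter downstream of its first, and it is this promoter that is imprinted. Which of its 5 listed starts lay under the intervals was not analysed here.

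**Figure D3:**
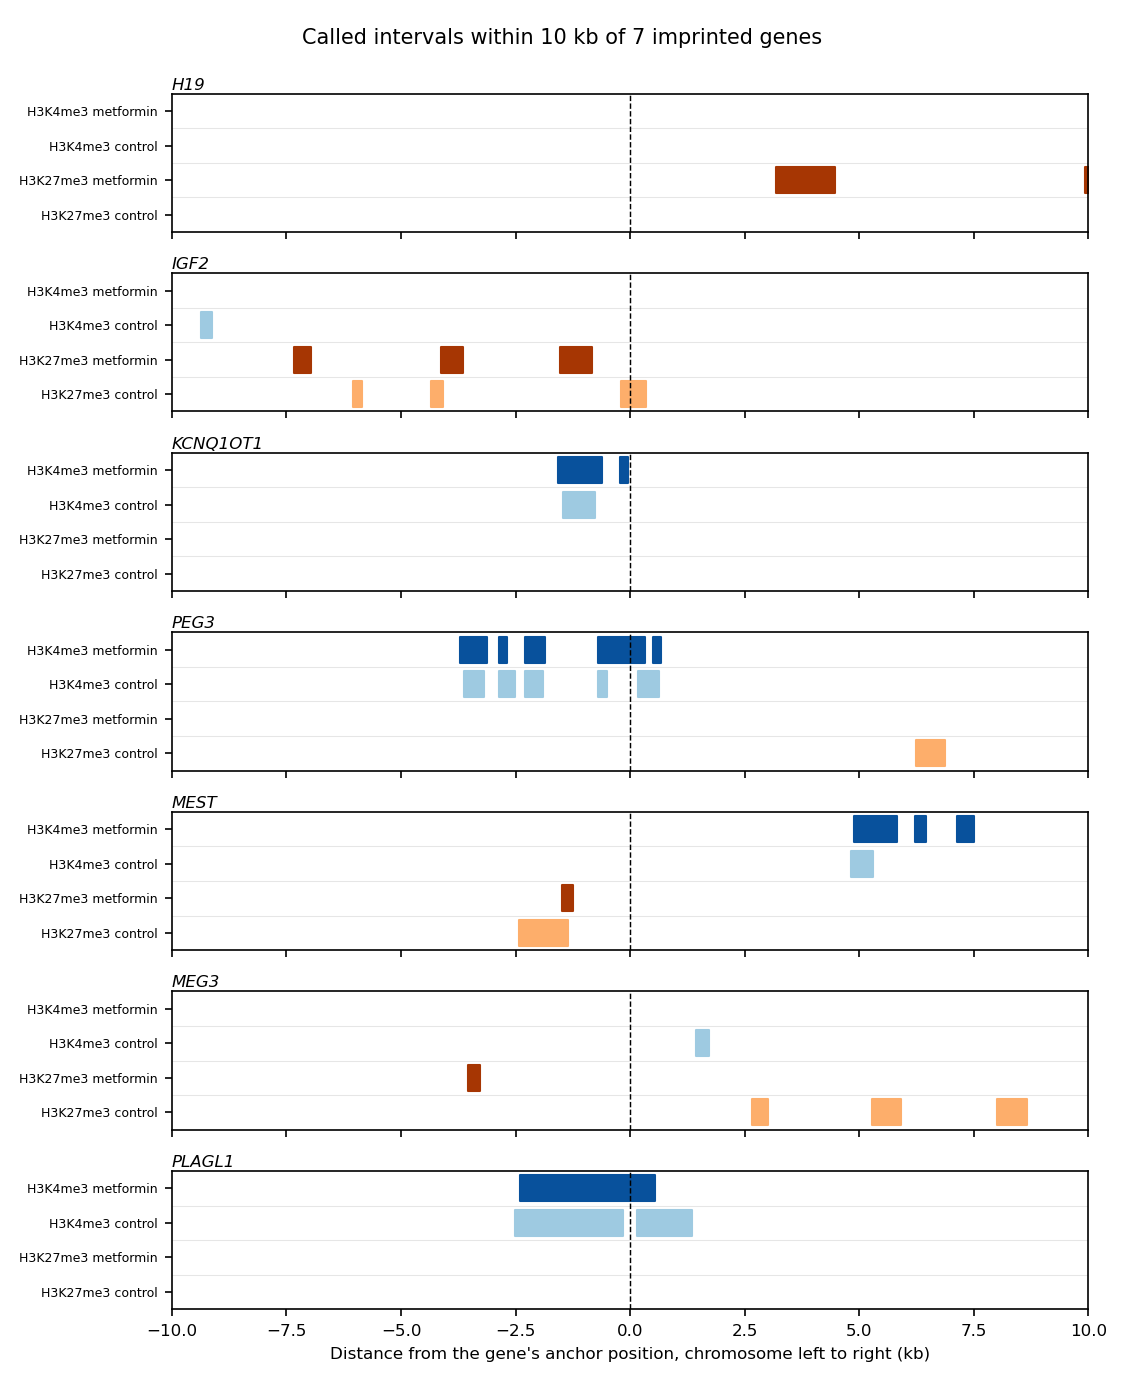
Each panel shows 1 gene, with the called intervals of the 4 libraries as boxes along the chromosome (x axis, distance from the anchor position in kb, dashed line at 0). H3K4me3 lies at or near the anchor at KCNQ1OT1, PEG3 and PLAGL1 and about 5 kb to its right at MEST, and no panel shows the marks on the same sequence.

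GNAS encodes the stimulatory G protein alpha subunit and, from other promoters, the proteins NESP55 and XLαs. It held 11 H3K4me3 intervals in metformin cells and 8 in control cells, in 2 stretches with no interval between them over 33394 bp in metformin cells and 34085 bp in control cells. The left stretch ran over 6025 bp in metformin cells (chr20:57421875-57427899) and 5805 bp in control cells (chr20:57422082-57427886). The right stretch ran over 10600 bp in metformin cells (chr20:57461294-57471893) and 8631 bp in control cells (chr20:57461972-57470602). Which GNAS promoter, or that of the antisense gene GNAS-AS1, belongs to each stretch was not analysed here.

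The left GNAS stretch was led by a single wide interval, which was nearly the same in both conditions. It was chr20:57423027-57426232 in metformin cells (3206 bp, 10 sub-peaks, value 48.29) and chr20:57423267-57426211 in control cells (2945 bp, 6 sub-peaks, value 47.89). The control interval was contained in the metformin interval. These are the highest values of all intervals at the 8 loci in their lists, at the 93.5 percentile in metformin cells and the 96.2 percentile in control cells. The other intervals of the left stretch were at most 535 bp long in metformin cells and 827 bp in control cells, with values of at most 5.17 and 6.53.

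The right GNAS stretch was divided into 7 intervals in metformin cells and 4 in control cells. It covered 7733 bp in metformin cells and 6630 bp in control cells. Its highest value was that of chr20:57462133-57463850 in metformin cells (1718 bp, value 48.21), and in control cells that of chr20:57461972-57463826 (1855 bp, value 35.18), which overlaps it over 1694 bp. The widest control interval, chr20:57467116-57470602 (3487 bp, 8 sub-peaks, value 29.14), lay over 2 metformin intervals. These were chr20:57467116-57467906 (791 bp, value 32.39), which starts at the same base as the control interval, and chr20:57468145-57471066 (2922 bp, value 13.98). A control interval here was thus divided in metformin cells, the opposite of what was seen at PLAGL1. Metformin cells alone had intervals at both outer ends, chr20:57461294-57461859 (value 1.69) and chr20:57471526-57471893 (value 2.63). Over the whole range H3K4me3 covered 12093 bp in metformin cells and 10730 bp in control cells, a ratio of 1.13. Of the metformin length 78.3% was shared, and of the control length 88.3%.

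**Figure D4:**
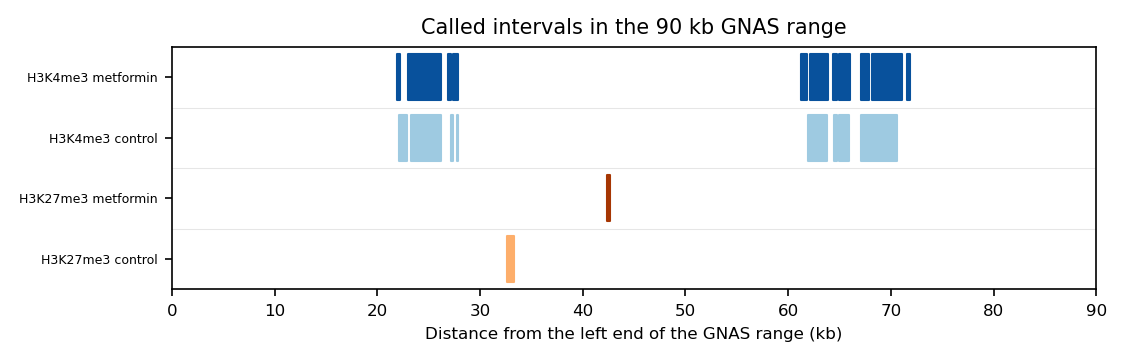
Boxes show the called intervals of the 4 libraries along the GNAS range (x axis, distance from its left end in kb). H3K4me3 forms 2 stretches in metformin and in control cells. Each H3K27me3 list has 1 interval between them, of 333 bp in metformin cells and 667 bp in control cells.

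H19, a non-coding RNA and host of MIR675, had no H3K4me3 interval within 10 kb in either condition. The nearest lay 48778 bp away from the anchor chr11:2019065 in metformin cells and 48673 bp in control cells. H3K27me3 was called in metformin cells only, at chr11:2022249-2023528 (1280 bp, value 1.57) and at chr11:2028992-2029157 (166 bp, value 1.29), which reaches past the edge of the window. H19 is read towards lower coordinates, so both lay on its upstream side. The nearest control H3K27me3 interval was 28392 bp away from the anchor. The value of the first interval was at the 57.9 percentile of its list.

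IGF2, which encodes a fetal growth factor, had little H3K4me3 near its anchor chr11:2170833. A single interval of 235 bp, chr11:2161465-2161699, was called in control cells, with a value of 1.78 at the 8.0 percentile of its list. Metformin cells had none within 10 kb, but chr11:2159523-2159861 (339 bp, value 2.71) lay just outside, 1603 bp away from the control interval. Further out on the same side lay chr11:2157354-2157751 (398 bp, value 4.52), also in metformin cells. Within 100 kb of the anchor H3K4me3 covered 737 bp in metformin cells and 235 bp in control cells, the opposite order. The finding of H3K4me3 in control cells alone therefore rests on the edge of the window. In the RefSeq gene order IGF2 overlaps IGF2-AS and INS-IGF2 and is followed by INS.

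H3K27me3 at IGF2 formed 3 intervals in each condition, mostly in different places. In metformin cells they were chr11:2163497-2163864 (value 1.61), chr11:2166713-2167189 (value 1.5) and chr11:2169293-2170004 (value 1.29). In control cells they were chr11:2164793-2164988 (value 1.34), chr11:2166498-2166755 (value 2.42) and chr11:2170631-2171188 (value 1.25). The last of these lay over the anchor, whereas the nearest metformin interval was 828 bp away. The middle pair overlapped over 43 bp, and that was the only shared sequence, 2.76% of the metformin length and 4.25% of the control length. The covered length was 1557 bp in metformin cells and 1012 bp in control cells, a ratio of 1.54, or 1.46 within 5 kb and 3.28 among intervals with a value of at least 1.5. The middle metformin interval lay at that limit and was kept.

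MEG3, a non-coding RNA known as a tumour suppressor, showed the marks side by side in control cells only. The control H3K4me3 interval chr14:101293880-101294162 (283 bp, value 3.07) lay 1434 bp downstream of the anchor chr14:101292445. The control H3K27me3 interval chr14:101295113-101295459 (347 bp, value 1.30) began 950 bp beyond it, the shortest distance between the marks at any of the 8 loci. Both calls ranked low by value in their own lists, at the 23.1 percentile for H3K4me3 and the 16.1 percentile for H3K27me3. Further control H3K27me3 intervals were chr14:101297727-101298364 (638 bp, value 2.04) and chr14:101300446-101301095 (650 bp, value 1.49). Metformin cells had a single H3K27me3 interval, on the other side of the anchor, at chr14:101288899-101289175 (277 bp, value 1.5), and their nearest H3K4me3 was 97961 bp away.

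The smaller H3K27me3 coverage at MEG3 in metformin cells did not extend to its surroundings. Within 10 kb it was 277 bp in metformin cells and 1635 bp in control cells, a ratio of 0.169. The ratio was 0.798 within 5 kb and 1.05 within 20 kb. Within 100 kb H3K27me3 covered 25675 bp in 26 metformin intervals and 25714 bp in 29 control intervals, or 12.8% of the sequence in metformin cells and 12.9% in control cells.

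H3K27me3 at MEST, PEG3 and GNAS was called as at most 1 interval per list. At MEST it lay to the left of the anchor, at chr7:130124569-130124794 in metformin cells (226 bp, value 1.21) and chr7:130123626-130124700 in control cells (1075 bp, value 1.20), with 132 bp in common and a ratio of covered length of 0.21, or 0.132 within 20 kb. At PEG3 only control cells had an interval, chr19:57358334-57358975 (642 bp, value 1.34). At GNAS the metformin interval chr20:57442336-57442668 (333 bp, value 1.55) and the control interval chr20:57432632-57433298 (667 bp, value 1.43) lay 9037 bp apart. Over the 8 loci H3K27me3 covered 3747 bp in metformin cells and 5031 bp in control cells, a ratio of 0.745, against 1.09 for the whole lists. That ratio depended on the limits chosen: it was 1.14 within 5 kb of the anchors and 2.74 for values of at least 1.5. Values at the 8 loci ran from 1.21 to 1.61 in metformin cells and from 1.20 to 2.42 in control cells. Their medians were 1.5 and 1.34, against 1.5 and 1.51 over the whole lists. Median widths were 350.5 bp and 638 bp, against 687 bp and 642 bp. The MEST control interval was at the 72.5 percentile of widths in its list, but only at the 4.8 percentile of values. In metformin cells the wider H19 interval was at the 75.7 percentile of widths. By value, the control IGF2 interval of value 2.42 was at the 97.8 percentile and the control MEG3 interval of value 2.04 at the 91.5.

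Shares of intervals without a partner at the loci were below those of the whole lists for H3K4me3 and above them for H3K27me3. With so few intervals they could not be told apart from the whole-list shares. Of the metformin H3K4me3 intervals, 6 of 22 (27.3%, exact 95% interval 10.7 to 50.2) had no control partner, against 32.7% of the whole metformin list. Of the control intervals, 2 of 19 (10.5%, 1.30 to 33.1) had no metformin partner, against 22.7% of the whole control list. For H3K27me3 it was 6 of 8 metformin intervals (75%, 34.9 to 96.8), against 53.7% of that list, and 7 of 9 control intervals (77.8%, 40.0 to 97.2), against 51.7%. Each exact interval contains the share of its whole list. They cover counting error only, and neighbouring calls of a locus are not independent.

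Joined and divided H3K4me3 intervals were about as common as elsewhere. In metformin cells 3 of 22 intervals, at PEG3, PLAGL1 and GNAS, lay over 2 or more control intervals (13.6%), against 12.6% of the list. In control cells 2 of 19, at PEG3 and GNAS, lay over 2 or more metformin intervals (10.5%), against 8.64%. No H3K4me3 interval at the loci met H3K27me3 of the same cells, 0 of 22 in metformin cells and 0 of 19 in control cells (exact 95% intervals up to 15.4% and 17.6%). In the whole lists 4.55% of metformin and 2.78% of control H3K4me3 intervals were.

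Differences in covered length were read against all tiles of 20 kb, and of 90 kb for GNAS, counting differences of at least 1.5 times in either direction. Of the 4 windows of 20 kb with H3K4me3 in both lists, KCNQ1OT1 and MEST were past it with more in metformin cells (19.2% of all such tiles) and none with less (6.22%). KCNQ1OT1 was no longer past it at values of at least 5 (1.36), where PEG3 was (2.49), and MEST was not past it upwards within 5 kb (0.731). Of the 6 windows with H3K4me3 in either list, IGF2 and MEG3 had it in control cells only (6.63% of tiles) and none in metformin cells only (10.3%). GNAS, at 1.13, passed in neither direction (15.3% and 4.14% of the 90 kb tiles with more and less in metformin cells). The median ratio over tiles was 1.10 at 20 kb and 1.11 at 90 kb.

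For H3K27me3 such differences are frequent across the genome. Of the 3 windows of 20 kb covered in both lists, IGF2 was past the ratio with more in metformin cells (31.1% of tiles), and MEST and MEG3 with less (22.3%). Within 5 kb neither IGF2 (1.46) nor MEG3 (0.798) was past it. H19 was covered in metformin cells only (16.2% of tiles) and PEG3 in control cells only (14.3%). GNAS, at 0.499, was past it with less in metformin cells, as were 16.7% of the 90 kb tiles, while 27.1% had more.

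Most H3K4me3 intervals of the loci were neither the widest nor the highest of their lists. Their median width was 550.5 bp in metformin cells and 462 bp in control cells, against 524 bp and 517 bp over the whole lists. Their median value was 10.23 in metformin cells and 8.11 in control cells, against 6.31 and 5.73. The wide intervals of PLAGL1 and GNAS stood at the upper end: PLAGL1 was at the 92.2 percentile of widths in metformin cells and its wider interval at the 89.2 percentile in control cells. At the lower end the PEG3 interval chr19:57352592-57352761 of metformin cells (170 bp) was at the 3.3 percentile of widths, but its value, 5.54, was at the 45.5 percentile. Percentiles are set within a list and do not compare the conditions.

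**Figure D5:**
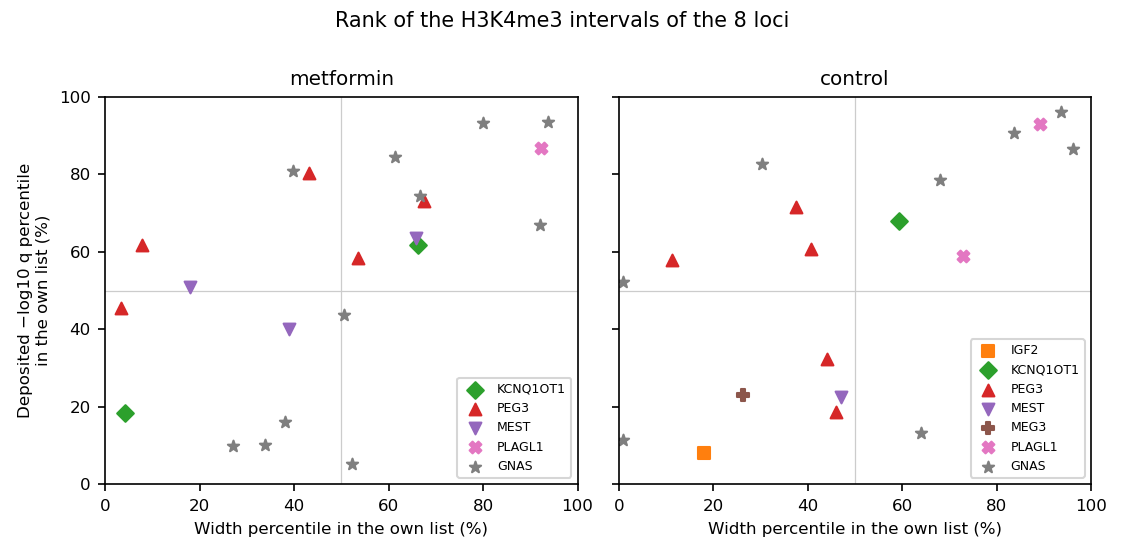
Each point is an H3K4me3 interval of the loci, placed by the percentile of its width (x axis, %) and of its deposited −log10 q (y axis, %) within its own list, for metformin cells (left) and control cells (right), with 1 symbol per locus. PLAGL1 and the wide GNAS intervals lie at the upper right, and the single control intervals of IGF2 and MEG3 lie at the lower left.

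The surroundings of the loci held unequal amounts of H3K27me3. Within 100 kb of the middle of the GNAS range it covered 36906 bp in metformin cells and 26098 bp in control cells, 18.5% and 13.0% of the sequence. The whole lists covered 3.05% in metformin cells and 2.80% in control cells of the length up to the last interval of each chromosome. All H3K4me3 within that distance of the middle lay in the 2 stretches described, in a neighbourhood with 24 H3K27me3 intervals in metformin cells and 20 in control cells. Around H19 H3K27me3 covered 6.71% in metformin cells and 8.21% in control cells, and around IGF2 4.84% in metformin cells and 7.62% in control cells. These 2 surroundings overlap each other. KCNQ1OT1, PEG3, MEST and PLAGL1 had at most 1.59% in metformin cells and 1.06% in control cells. H3K4me3 within 100 kb was densest at GNAS (6.05% in metformin cells and 5.36% in control cells) and PLAGL1 (5.25% and 4.87%).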

How the data were processed

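H3K4me3 and H3K27me3 ChIP-seq of H1299 cells with or without 5 mM metformin was analysed from 1 deposited peak list per library. Per the labels' protocols, cross-linked chromatin was cut with micrococcal nuclease and precipitated with an antibody to each mark. The submitters' processing notes name Trimmomatic 0.38, Bowtie, MACS2 and hg19. The sources used here do not give their options or the background library. The authors deposited 1 value per peak, read here as −log10 q from the values themselves. Rows with the same interval were joined and carry their highest value. Shares carry exact Clopper-Pearson 95% intervals. Overlap needed at least 1 bp. Tiles were counted where covered in both lists, or in either for coverage in a single list. With 1 library per group no test was possible.

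Overlap code was tested on simulated data: 100% of kept intervals were recovered exactly and 0% falsely, among 50585 H3K4me3 and 85579 H3K27me3 control intervals, and counts equalled those of bedtools 2.31.1. Python 3.11.15, pandas 2.3.3, numpy 2.4.6, scipy 1.17.1 and matplotlib 3.10.9 were used.

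All 8 loci are named; within a locus, intervals over or nearest the anchor, the longest and the highest-valued are named by rule, and the others were chosen after their values were seen. Loci and lists were chosen with earlier results of these data known. Stretches join intervals within 5 kb and, like the 100 kb surroundings, were set after seeing the data. Other imprinted genes were not analysed here, for want of hg19 gene positions.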

Additional observations from a re-analysis of the deposited data

How the results depend on the processing

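No paired analysis was possible because each mark had a single library in each condition, and no replicate could be left out. Leaving out GNAS was chosen after seeing the data. Values are given for metformin cells and then for control cells. H3K4me3 intervals (22 and 19) numbered 8 and 11 with intervals within 1 kb merged, 11 and 11 without GNAS, and 12 in control cells at values of at least 5. Their covered length (20101 and 17829 bp) was 8008 and 7099 bp without GNAS. Their shared part (72.7% and 89.5%) was 100% in metformin cells with merging and 100% in control cells at values of at least 5. H3K27me3 intervals (8 and 9) numbered 4 and 2 at values of at least 1.5, and in control cells 5 within 5 kb and 14 within 20 kb. The limit of 1.5 lies close to the list medians (1.5 and 1.51). Of the metformin intervals printed as 1.5, that of IGF2 was kept before rounding and that of MEG3 fell short. H3K27me3 covered length (3747 and 5031 bp) was 8328 and 8590 bp within 20 kb, 2458 and 896 bp at values of at least 1.5, and 2905 bp in control cells within 5 kb. Its ratio (0.745) was 1.14 within 5 kb and 2.74 at values of at least 1.5. No control H3K27me3 interval was shared (0%) when at least 50% of it had to be overlapped. Among single loci, the H3K4me3 ratio of MEST was 0.731 within 5 kb, and the H3K27me3 ratio of MEG3 was 1.05 within 20 kb. The PEG3 H3K4me3 ratio was 2.49 at values of at least 5. The cause of these changes was not tested. The H3K4me3 ratio over all loci (1.13) kept metformin above control under each alternative run. No H3K4me3 interval met H3K27me3 within 20 kb or with intervals within 1 kb merged. The other runs of this count only removed intervals or tightened the rule, so they could not have added such an interval. Depth is unknown, so the absence of a call does not show the absence of a mark.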
